A study of Homo sapiens with 8 samples.

Results

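The genes described here are 44 genes of G2 phase and mitosis, out of 19892 genes in the deposited table. They were taken by name from a list chosen with earlier results of these data known. They were followed in MDA-MB-231 cells, a line of triple-negative breast cancer, after knockdown of ADAR1, the enzyme that turns adenosine into inosine in double-stranded RNA. All 44 had enough counts to be tested in RNA, in ribosome footprints and in translational efficiency, which is footprints relative to RNA. They fall into 8 groups by role: 6 cyclins, CDK1 and CDC25 phosphatases, 7 genes of the spindle assembly checkpoint and the anaphase-promoting complex, 4 of the chromosomal passenger complex, 6 spindle kinases and microtubule-binding proteins, 8 kinesins, 5 genes of the centromere and outer kinetochore, 3 of cytokinesis and 5 of chromosome structure.

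Cyclin B binds CDK1 to form the kinase that drives cells into mitosis, and CDC25 phosphatases switch that kinase on. Aurora and Polo kinases and kinesin motors then build the spindle, the kinetochores tie chromosomes to it, and the spindle assembly checkpoint holds back the anaphase-promoting complex until every chromosome is attached. The complex then marks cyclin B and securin for destruction, and the dividing cell pinches in the middle at a ring that ECT2 and anillin help to place. Transcripts of most of these genes peak in G2 and mitosis. A shared promoter element called CHR, bound by the DREAM and MYB-FOXM1 complexes, is known to time that peak, often together with CCAAT boxes, which NF-Y binds.

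Cells received an siRNA against ADAR1 or a control siRNA, and 2 kinds of library were made: footprint-sized RNA for ribosome profiling (Ribo-seq), and longer RNA fragments for RNA-seq, named Input in the labels. The 4 groups were therefore ADAR1 siRNA Ribo-seq, control siRNA Ribo-seq, ADAR1 siRNA Input and control siRNA Input, with 2 libraries in each. The sources used here give neither the siRNA sequence nor the time after transfection, and 1 cell line was used. Whether the 2 replicates of a group came from different cultures is not stated by the labels, and the p-values therefore cover the spread among libraries alone, which could be technical.

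Total estimated counts were 15732757 to 17153716 per Input library and 10492223 to 14875465 per Ribo-seq library. The 44 genes were well covered, with 119 to 5638 counts per gene in Ribo-seq libraries and 354 to 24743 in Input libraries. ADAR had 14.8 and 30.6 TPM (a level per transcript length, scaled to the same total in each library) in ADAR1 siRNA Input and 106.2 and 110.2 TPM in control Input, and 1.55 and 8.41 TPM in ADAR1 siRNA Ribo-seq against 19.1 and 20.3 TPM in control Ribo-seq. The ADAR1 siRNA libraries thus held 13.7% and 28.3% of the control mean in Input and 7.87% and 42.7% in Ribo-seq, the first of each pair being replicate 1. The RNA change of ADAR was -2.26 ± 0.32 (log2, SE) with an edgeR adjusted p of 0.0527. In footprints the change of ADAR was -2.04 ± 0.47 with an edgeR adjusted p of 0.0485. In translational efficiency it was 0.25 ± 0.68 with an edgeR adjusted p of 0.867. Of 7 mesenchymal markers, VIM, CD44, CAV1, AXL and MSN stood at 587 TPM or more in Input, FN1 at 90.8 to 155 TPM and SPARC at 1.12 to 3.93 TPM. Of the luminal epithelial markers, KRT8, KRT18 and KRT19 stood at 244 to 728 TPM in Input, EPCAM at 13.3 to 21.0 TPM, GATA3 at 5.84 to 8.47 TPM and CDH1 at or near 0. The hormone receptors ESR1 and PGR were at or near 0, ERBB2 stood at 29.5 to 35.5 TPM, and of the immune markers CD68 stood at 179 to 232 TPM while PTPRC, CD3E and MS4A1 were at or near 0.

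Of the 44 genes, 38 had a promoter in the RefSeq table for GRCh38.p14, which covers 250 bases before to 50 after the annotated start. BUB3, TTK, UBE2C, BIRC5, AURKA and TPX2 did not. The letters TTTGAA (CHR), on either strand, stood in 28 of the 38 promoters (73.7%). Of the 10583 promoters of genes tested in RNA or footprints, the 38 included, 1055 held them (9.97%). CCAAT, on either strand, stood in 25 of the 38 (65.8%), against 36.9% of the 10583. Both were present in 20 of the 38 (52.6%), against 4.25%. The 36 CHR matches began at a median of 27 bases before the start, 20 of them within the 100 bases upstream, and the 50 CCAAT matches began at a median of 77 bases before it, 35 of them within those 100 bases. The plot of match positions, pooled over promoters, has CCAAT matches mostly farther upstream than CHR matches. Single promoters can differ, as in ECT2, where a CHR match at -115 lies upstream of CCAAT matches at -97 and -58. A match of letters is a description and not a binding site.

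**Figure D1:**
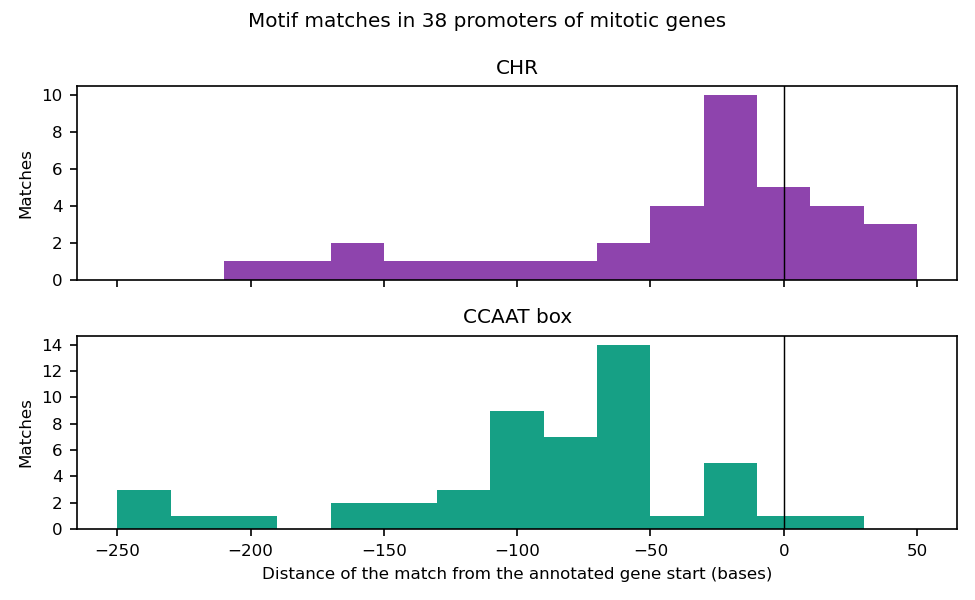
Histogram of the positions of 36 CHR matches and 50 CCAAT matches in 38 promoters of mitotic genes, in bins of 20 bases; the x axis is the distance of the match from the annotated gene start in bases and the y axis the number of matches. CHR matches are most frequent just before the start, with a median of -27, and CCAAT matches farther upstream, with a median of -77.

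The 120 bases upstream of the start are shown for the 6 genes whose footprints changed, so that the shared elements can be read. CHR and CCAAT letters, on either strand, are in capitals, and each sequence runs 5′ to 3′ on the strand of the gene. KIF11 lies at chr10:92593010-92593129 (+), NCAPG at chr4:17810859-17810978 (+), MKI67 at chr10:128126424-128126543 (-), ECT2 at chr3:172750606-172750725 (+), CCNB1 at chr5:69167030-69167149 (+) and NUSAP1 at chr15:41332761-41332880 (+).
KIF11: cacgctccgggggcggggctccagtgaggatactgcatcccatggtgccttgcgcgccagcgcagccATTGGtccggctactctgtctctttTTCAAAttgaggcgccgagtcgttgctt
NCAPG: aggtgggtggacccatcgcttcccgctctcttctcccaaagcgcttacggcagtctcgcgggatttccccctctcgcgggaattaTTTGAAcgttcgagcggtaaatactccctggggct
MKI67: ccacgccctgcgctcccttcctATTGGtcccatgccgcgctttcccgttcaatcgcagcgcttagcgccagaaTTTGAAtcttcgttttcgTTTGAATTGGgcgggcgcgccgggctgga
ECT2: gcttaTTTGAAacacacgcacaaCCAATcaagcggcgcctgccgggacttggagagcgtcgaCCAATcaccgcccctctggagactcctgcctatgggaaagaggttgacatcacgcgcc
CCNB1: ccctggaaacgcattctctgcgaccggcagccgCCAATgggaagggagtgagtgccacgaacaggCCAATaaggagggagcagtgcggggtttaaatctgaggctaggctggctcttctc
NUSAP1: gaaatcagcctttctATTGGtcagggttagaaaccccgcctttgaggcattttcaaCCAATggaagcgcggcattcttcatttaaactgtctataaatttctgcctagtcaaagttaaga
KIF11 and ECT2 each hold both elements in this window. MKI67 holds both elements at 2 places each, and 1 of its CHR matches shares a base with 1 of its CCAAT matches. By these letters, NCAPG holds CHR only, and CCNB1 and NUSAP1 hold CCAAT only. Other spellings of CHR were not searched. The 1 CHR match of NUSAP1 lies 14 bases after the start, outside the stretch shown.

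At the RNA level no gene of the 44 passed the test and their summed levels overlapped between the siRNAs. The summed level was 8596 and 8517 TPM in ADAR1 siRNA Input and 8545 and 8326 TPM in control Input. None of the 44 passed an edgeR adjusted p of 0.05, where 0.253% of the 12644 genes tested did. At an unadjusted p under 0.05, 5 genes were lower and 8 higher, against 13.5% and 11.8% of all genes, and DESeq2 called 1 of the 44, UBE2C, lower, beside 2.69% of all genes. Over all genes, 10 of the 32 called were higher, and 5 of 11 with upper-quartile scaling. The median log2 fold change of the 44 was 0.07, beside 0.00 for all genes tested. Of the 44, 28 were above 0 and 16 below, beside 6404 and 6240 of all genes. On normalised log2 counts the groups did not overlap for 19 genes that were higher and 9 that were lower after ADAR1 siRNA, against 28.5% and 29.7% of all genes. In bulk libraries, a change in the share of cells in G2 and mitosis and a change in RNA per such cell cannot be told apart.

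The extremes in RNA were small. UBE2C, the ubiquitin-conjugating enzyme that works with the anaphase-promoting complex, had 499 and 471 TPM in ADAR1 siRNA Input, against 617 and 640 TPM in control Input, a log2 fold change of -0.39 ± 0.06 (SE) with an edgeR adjusted p of 0.0647. KIF20B, a kinesin of cytokinesis, had the highest value, 0.28 ± 0.10 with an edgeR adjusted p of 0.158. Without ADAR1 siRNA Input replicate 1 the same test called 30 of the 44 genes (22 higher, 8 lower) and 31.9% of all genes, and without ADAR1 siRNA Input replicate 2 it called 28 (16 higher, 12 lower) and 42.1% of all genes. Those fits take the spread of the lone knockdown library from the controls, whose replicates lay closer together. Leaving out one or the other control library, edgeR called none (1 gene at an unadjusted p under 0.05 each time, beside 8.14% and 7.41% of all genes).

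Summed over the 44 genes, ribosome footprints were lower after ADAR1 siRNA, while 5 of the 44 passed the test as lower, 1 passed as higher and 38 did not pass. The summed footprint level was 2234 and 2678 TPM in ADAR1 siRNA Ribo-seq and 3079 and 3235 TPM in control Ribo-seq, which is 0.223% and 0.268% of all TPM in the knockdown libraries and 0.308% and 0.323% in the controls. UBE2C, CCNB1 and CDC20, which are abundant, made up 20.6%, 16.4% and 11.0% of the difference between the mean sums. Footprints of 5 genes fell at an edgeR adjusted p under 0.05, namely NUSAP1, KIF11, CCNB1, NCAPG and ECT2, against 1.67% of the 12000 genes tested, and those of 1 gene, MKI67, rose, against 1.88%. In all, 6 of 44 were called, where 3.54% of all genes were. Over all genes, 225 of the 425 called were higher, and 311 of 487 with upper-quartile scaling in place of TMM, which called the same 6 members.

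**Figure D2:**
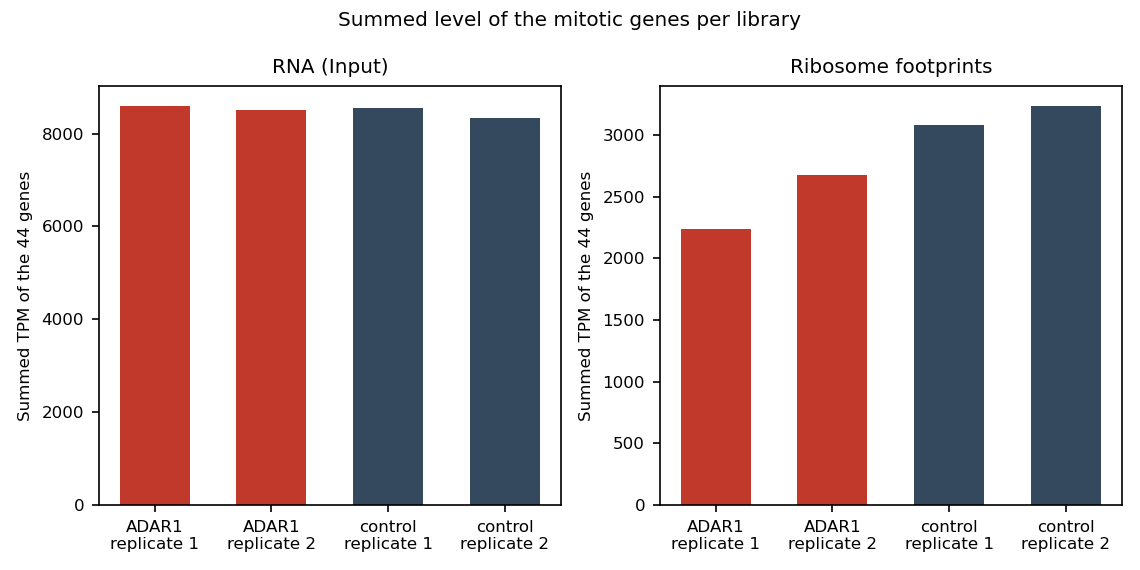
Summed TPM of the 44 mitotic genes in each library, RNA at left and ribosome footprints at right, with ADAR1 siRNA in red and control siRNA in dark blue; bars start at 0. The RNA bars lie between 8326 and 8596 in all 4 libraries, and the footprint bars are 2234 and 2678 after ADAR1 siRNA and 3079 and 3235 after control siRNA.

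The shift went beyond the genes called. The median footprint log2 fold change of the 44 was -0.32, beside 0.05 for all genes tested. Below 0 were 35 of the 44, beside 5473 of all 12000 genes. At an unadjusted p under 0.05, 19 were lower and 2 higher, against 11.3% and 12.7% of all genes. On normalised log2 counts the groups did not overlap for 27 genes that were lower and 2 that were higher, against 26.2% and 30.1% of all genes. Among the 27, RNA was higher without overlap for 10 (37.0%), lower for 5 (18.5%) and overlapping for 12 (44.4%). Among the 3099 of all genes with such lower footprints, these shares were 27.3%, 35.3% and 37.4%.

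The count of 6 moved with each library left out. Without control siRNA Ribo-seq replicate 2 none of the 44 was called by edgeR (9 at an unadjusted p under 0.05, beside 9.16% of all genes), where 0.621% of all genes were. Without control replicate 1, only CCNB1 of the 6 was called, together with KIF23 and KIF2C, beside 3.07% of all genes. Without ADAR1 siRNA Ribo-seq replicate 1 the test called 14 (3 higher, 11 lower) and 15.3% of all genes, and without ADAR1 siRNA replicate 2 it called 30 (2 higher, 28 lower) and 28.1% of all genes, the 6 among them both times. The median of the 44 was -0.15 without ADAR1 siRNA replicate 1 and -0.70 without replicate 2, so the direction held and the size did not. A test with DESeq2 called 16 of the 44 and 6.23% of all genes, and edgeR without a filter on low counts called 19 and 10.9%, each with the 6 among them.

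The 2 knockdown footprint libraries differed in these genes. ADAR1 siRNA Ribo-seq replicate 1 was below replicate 2 in 40 of the 44 (median log2 difference -0.39), where 51.0% of all genes were. The exceptions were CDC25B, MAD2L1, UBE2C and BIRC5. In the control pair, replicate 1 was below replicate 2 in 28 of the 44 (median -0.12), where 52.2% of all genes were. ADAR itself stood at 7.87% of the control mean in the footprints of ADAR1 siRNA replicate 1 and at 42.7% in replicate 2; the part of this gap in the members' levels was not tested.

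**Figure D3:**
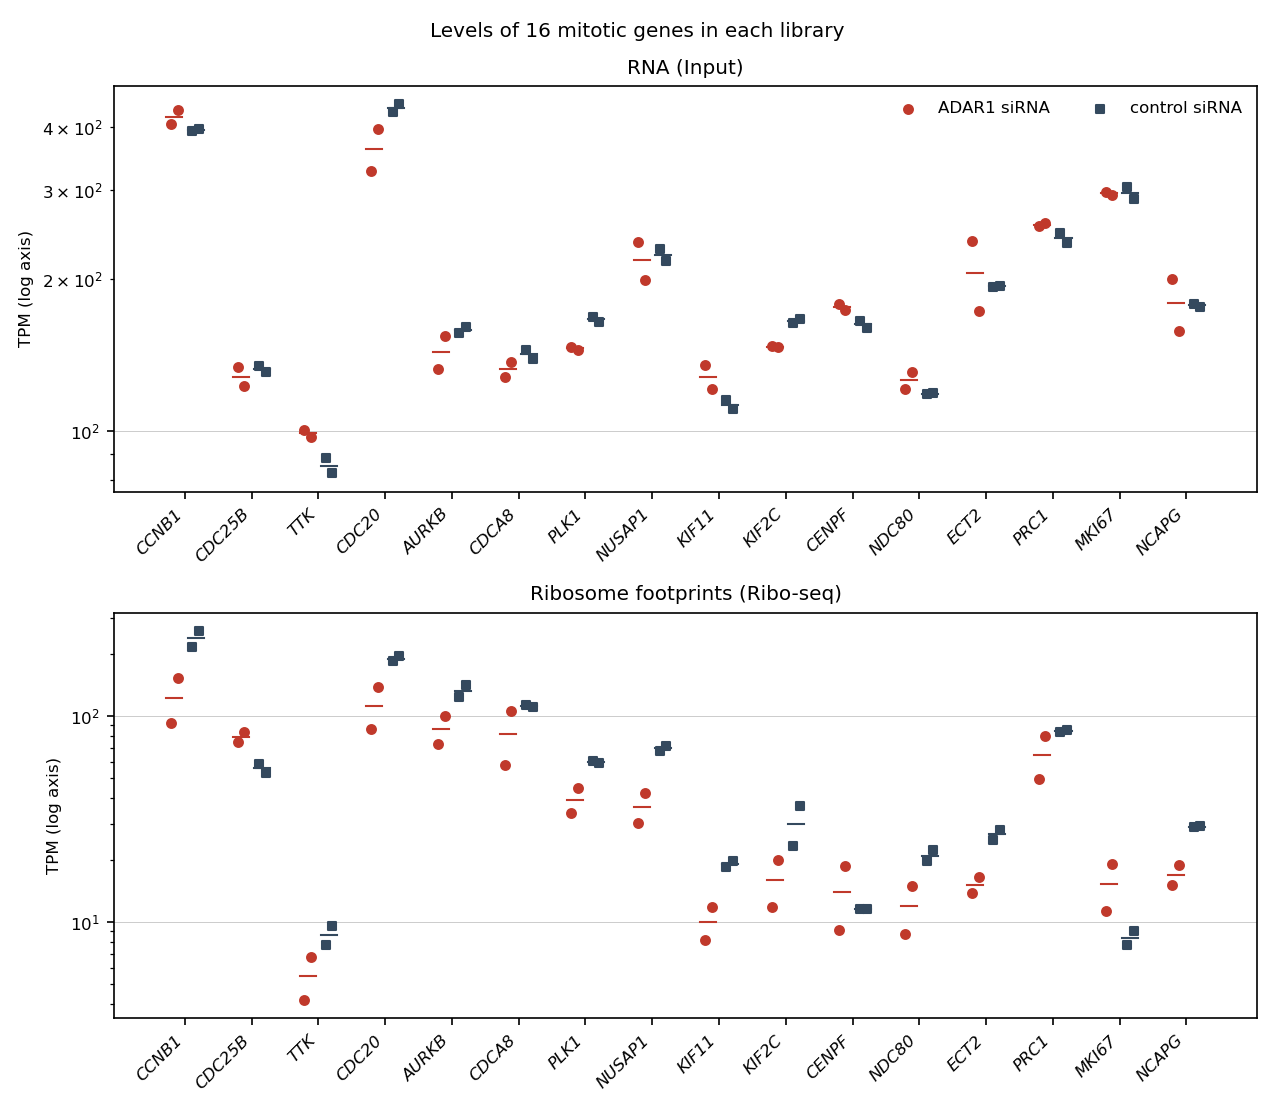
RNA (top) and ribosome footprint levels (bottom) of 16 mitotic genes in each library, in TPM on a log axis; red circles are ADAR1 siRNA libraries, dark squares control siRNA libraries, short lines the mean of 2. The genes were picked for small footprint p-values, so their separation in footprints (15 of 16, with CENPF overlapping) is a description. Their RNA groups do not overlap for 11 of the 16, with 6 higher and 5 lower after ADAR1 siRNA. These counts are on TPM. On normalised log2 counts, the shares of all genes without overlap were 28.5% higher and 29.7% lower in RNA. In footprints they were 30.1% higher and 26.2% lower.

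Among the cyclins, CDK1 and the CDC25 phosphatases, footprints of cyclin B1 fell and 4 of the 6 genes were below 0. CCNB1 (NCBI gene 891, chromosome 5, 69167150 to 69178245, GRCh38.p14) had 92.4 and 152 TPM in ADAR1 siRNA Ribo-seq, against 217 and 258 TPM in control Ribo-seq. Both knockdown libraries lay below both controls. The log2 fold change was -0.84 ± 0.19, 1.80-fold lower, with an edgeR adjusted p of 0.0460. Its RNA was 406 and 432 TPM in ADAR1 siRNA Input and 393 and 397 TPM in control Input, a log2 fold change of 0.07 ± 0.08. CDC25B, which activates CDK1 at the centrosome, lay the other way. Its footprints were 74.4 and 83.5 TPM after ADAR1 siRNA and 58.3 and 52.9 TPM after control siRNA, without overlap (log2 fold change 0.51 ± 0.14, edgeR adjusted p = 0.0691), while its RNA was 134 and 123 TPM after ADAR1 siRNA, against 135 and 131 TPM after control siRNA. CDC25C (-0.58), CDK1 (-0.23), CCNB2 (-0.20) and CCNA2 (0.05) did not pass the test.

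In the checkpoint and anaphase-promoting complex group all 7 footprint values were below 0 and none passed the test. Of the 7, 2 were lower at an unadjusted p under 0.05, against 11.3% of all genes. CDC20, the activator of the anaphase-promoting complex, had 86.2 and 138 TPM of footprints in ADAR1 siRNA libraries, against 184 and 195 TPM in controls (-0.68 ± 0.18, edgeR adjusted p = 0.0610). Its RNA, at 327 and 397 TPM after ADAR1 siRNA and 429 and 444 TPM after control siRNA, was also lower in both knockdown libraries. TTK, the kinase known as MPS1 that starts checkpoint signalling, had 4.19 and 6.79 TPM after ADAR1 siRNA, against 7.70 and 9.50 TPM after control siRNA (-0.57 ± 0.21, edgeR adjusted p = 0.143). Its RNA lay on the other side, at 101 and 97.3 TPM after ADAR1 siRNA and 88.3 and 82.5 TPM after control siRNA. UBE2C (-0.29), the checkpoint proteins BUB1B (-0.27), BUB3 (-0.16) and BUB1 (-0.10), and MAD2L1 (-0.0033), which holds CDC20 in check, lay closer to 0.

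The chromosomal passenger complex had 1 gene lower in footprints at an unadjusted p under 0.05, against 11.3% of all genes. It was split, with 2 of 4 footprint values below 0 and none past the test. AURKB, its kinase, had 73.1 and 100.1 TPM of footprints after ADAR1 siRNA, against 123 and 141 TPM after control siRNA (-0.51 ± 0.16, edgeR adjusted p = 0.0862). CDCA8, which encodes borealin, had 57.6 and 105 TPM after ADAR1 siRNA, against 113 and 109.9 TPM after control siRNA (-0.38 ± 0.21, edgeR adjusted p = 0.299). The knockdown libraries of CDCA8 lay far apart, the higher one just below the controls. The scaffold INCENP (0.16) and BIRC5 (0.20), which encodes survivin, had positive values. RNA of AURKB was 133 and 154 TPM after ADAR1 siRNA, against 157 and 161 TPM after control siRNA, and RNA of CDCA8 128 and 137 TPM after ADAR1 siRNA, against 145 and 139 TPM after control siRNA.

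All 6 spindle kinases and microtubule-binding genes had footprint values below 0, and NUSAP1 fell. Lower at an unadjusted p under 0.05 were 4 of the 6, against 11.3% of all genes. NUSAP1 (NCBI gene 51203, chromosome 15, 41332881 to 41381046) encodes a protein that bundles spindle microtubules near chromosomes. Its footprints were 30.2 and 42.1 TPM in ADAR1 siRNA libraries, against 67.8 and 71.3 TPM in controls. The groups lay far apart, and the log2 fold change of -0.87 ± 0.16, 1.83-fold lower, had the smallest edgeR adjusted p of the 44, 0.0346. Its RNA was 237 and 199 TPM after ADAR1 siRNA and 229.7 and 218 TPM after control siRNA, so the RNA groups overlapped. PLK1, the Polo kinase, had 33.6 and 44.8 TPM of footprints after ADAR1 siRNA, against 60.6 and 59.2 TPM after control siRNA (-0.53 ± 0.15, edgeR adjusted p = 0.0746), and 147 and 145 TPM of RNA after ADAR1 siRNA, against 168 and 165 TPM after control siRNA. DLGAP5 (-0.61), AURKA (-0.53), CKAP2 (-0.34) and TPX2 (-0.19), the activator of Aurora A, did not pass the test.

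Of the 8 kinesins, 7 had footprint values below 0 and KIF11 fell. Lower at an unadjusted p under 0.05 were 6 of the 8, against 11.3% of all genes. KIF11 (NCBI gene 3832, chromosome 10, 92593130 to 92655395) encodes Eg5, the motor that pushes spindle poles apart. Its footprints were 8.17 and 11.9 TPM in ADAR1 siRNA libraries, against 18.4 and 19.8 TPM in controls. Both knockdown values lay well below both controls (-0.85 ± 0.17, 1.80-fold lower, edgeR adjusted p = 0.0415). RNA of KIF11 was 135 and 121 TPM after ADAR1 siRNA, against 115 and 110.4 TPM after control siRNA, above both controls (0.17 ± 0.07, edgeR adjusted p = 0.186). KIF2C, the microtubule-depolymerising kinesin MCAK, had 11.8 and 20.0 TPM of footprints after ADAR1 siRNA, against 23.3 and 36.6 TPM after control siRNA (-0.83 ± 0.24, edgeR adjusted p = 0.0728), and its RNA was 147 and 147 TPM after ADAR1 siRNA, against 164 and 167 TPM after control siRNA. Its replicates differed more than those of KIF11 within both siRNAs. KIF23 (-0.71), KIF20A (-0.62), KIF4A (-0.51), KIF14 (-0.47), KIF15 (-0.20) and KIF20B (0.07) completed the group.

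Among the centromere and outer kinetochore genes, 2 of 5 footprint values were below 0 and none passed the test. Lower at an unadjusted p under 0.05 was 1 of the 5, against 11.3% of all genes. NDC80, which binds kinetochores to microtubules, had 8.74 and 15.0 TPM of footprints after ADAR1 siRNA, against 19.7 and 22.3 TPM after control siRNA (-0.75 ± 0.21, edgeR adjusted p = 0.0690). Its RNA was 121 and 131 TPM after ADAR1 siRNA and 118 and 119 TPM after control siRNA. CENPF, a large protein of the outer kinetochore, had 9.09 and 18.7 TPM of footprints after ADAR1 siRNA, 1 library on each side of the controls at 11.6 and 11.6 TPM. Its log2 fold change of 0.33 ± 0.24 became -0.21 without ADAR1 siRNA replicate 2. RNA of CENPF was 179 and 174 TPM after ADAR1 siRNA, against 165 and 160.4 TPM after control siRNA. NUF2 (0.08), the partner of NDC80, the centromeric histone CENPA (0.18) and the motor CENPE (-0.17) lay near 0.

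All 3 cytokinesis genes had footprint values below 0, and ECT2 fell. ECT2 (NCBI gene 1894, chromosome 3, 172750726 to 172829265) encodes the exchange factor that activates RhoA at the site of division. Its footprints were 13.7 and 16.6 TPM in ADAR1 siRNA libraries, against 25.1 and 28.1 TPM in controls. The 4 values formed separate groups (-0.71 ± 0.15, 1.64-fold lower, edgeR adjusted p = 0.0428). RNA of ECT2 was 239 and 173 TPM after ADAR1 siRNA, 1 library above and 1 below the controls at 193 and 194 TPM. PRC1, which crosslinks the central spindle, had 49.2 and 80.2 TPM of footprints after ADAR1 siRNA, against 83.1 and 85.1 TPM after control siRNA (-0.30 ± 0.18, edgeR adjusted p = 0.348), and its RNA was 255 and 258 TPM after ADAR1 siRNA, against 247 and 236 TPM after control siRNA. The value of anillin, ANLN, was -0.22.

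Chromosome structure held genes called in both directions. NCAPG (NCBI gene 64151, chromosome 4, 17810979 to 17844865), a subunit of condensin I, had 15.1 and 18.8 TPM of footprints in ADAR1 siRNA libraries, against 28.8 and 29.1 TPM in controls. Both pairs were tight and did not overlap (-0.73 ± 0.14, 1.66-fold lower, edgeR adjusted p = 0.0404). Its RNA was 201 and 158 TPM after ADAR1 siRNA and 179 and 176 TPM after control siRNA. MKI67 (NCBI gene 4288, chromosome 10, 128096659 to 128126423), the source of the Ki-67 antigen that coats mitotic chromosomes, had 11.2 and 19.2 TPM of footprints after ADAR1 siRNA, against 7.70 and 9.05 TPM after control siRNA. Both knockdown libraries lay above both controls (0.91 ± 0.20, 1.88-fold higher, edgeR adjusted p = 0.0443). Its RNA was 298 and 294 TPM after ADAR1 siRNA, against 304 and 289 TPM after control siRNA, with overlap. The condensin subunits SMC2 (-0.54) and SMC4 (-0.44) and the topoisomerase TOP2A (-0.13) did not pass the test.

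**Figure D4:**
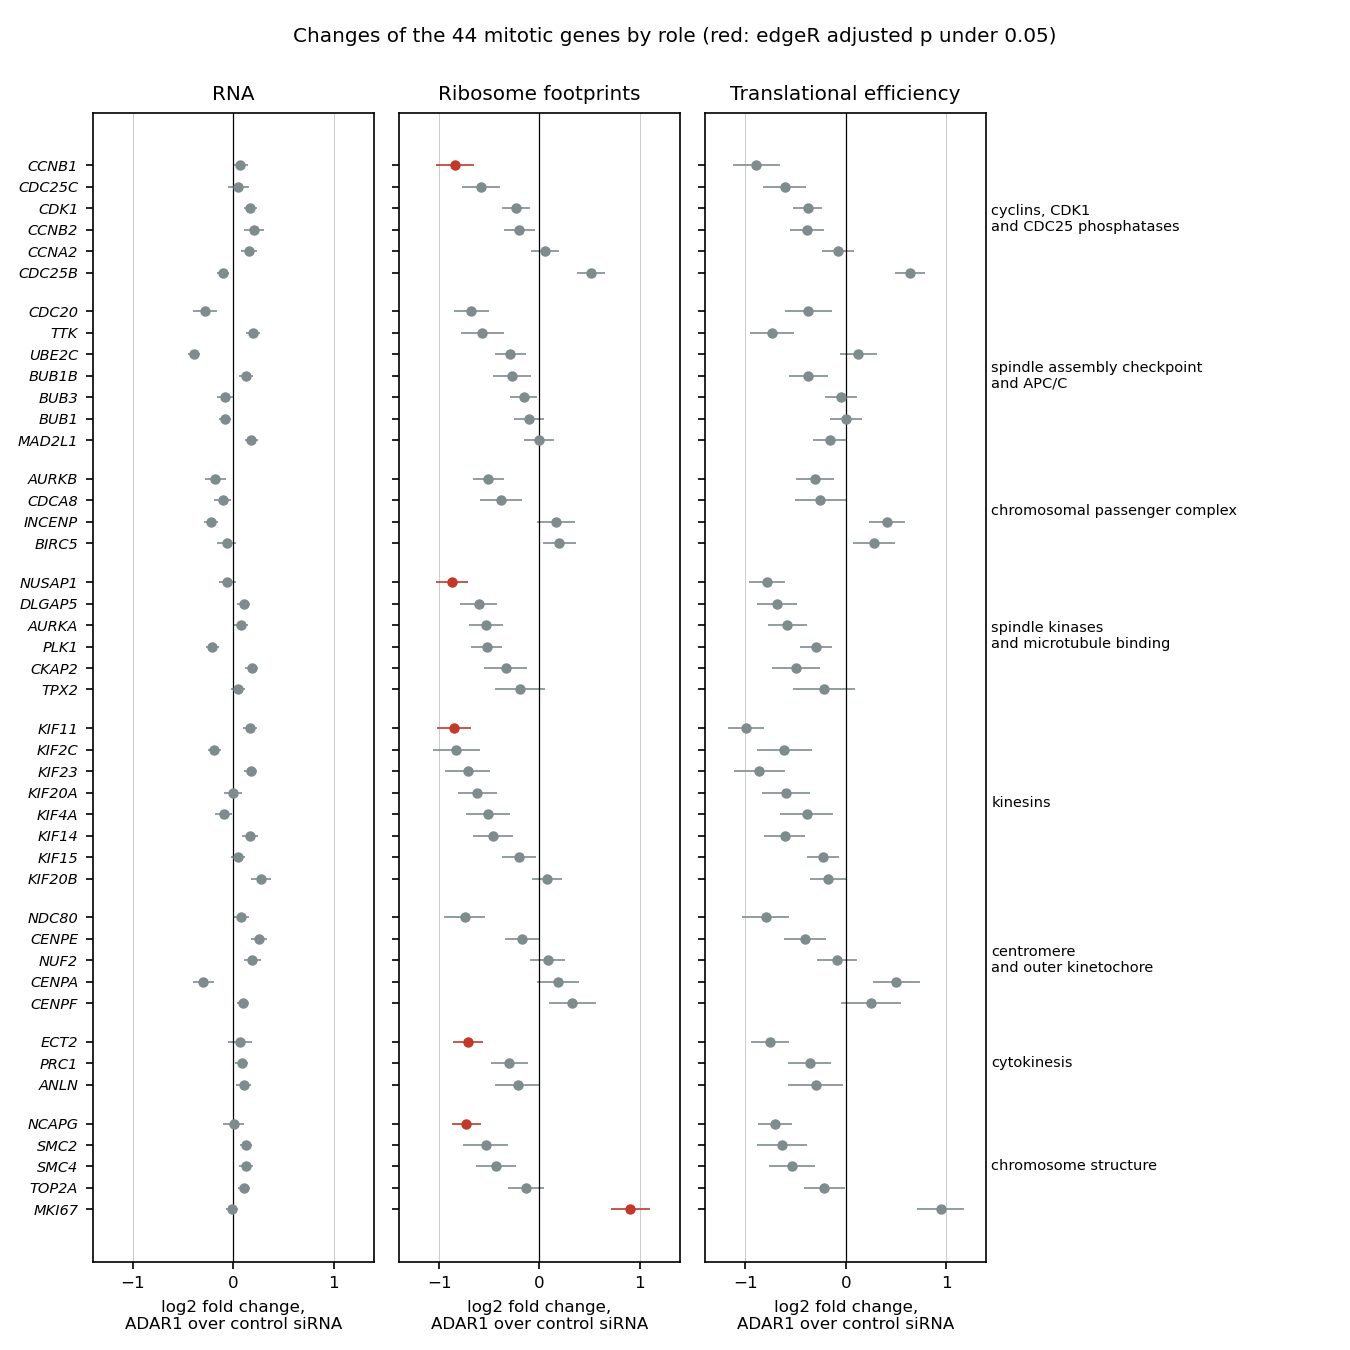
Log2 fold change, ADAR1 over control siRNA, of each of the 44 genes in RNA, ribosome footprints and translational efficiency, grouped by role; bars are the standard error from edgeR and red marks an adjusted p under 0.05. RNA values stay between -0.39 and 0.28, while 35 footprint values and 36 efficiency values lie below 0, with MKI67 the highest in both. Of all genes tested, 5473 of 12000 footprint values and 5528 of 12953 efficiency values lie below 0.

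Translational efficiency set footprints against RNA in 1 model of all 8 libraries. None of the 44 passed an edgeR adjusted p of 0.05, where 0.0463% of the 12953 genes tested did. At an unadjusted p under 0.05, 17 were lower and 3 higher, against 9.48% and 13.2% of all genes, and DESeq2 called 12 (2 higher, 10 lower), beside 5.93% of all genes. The median log2 change of the 44 was -0.37, beside 0.09 for all genes. Below 0 were 36 of the 44, beside 5528 of all 12953 genes. Without ADAR1 siRNA Ribo-seq replicate 1 edgeR called 5 (3 higher, 2 lower, median -0.19), beside 3.81% of all genes. Without ADAR1 siRNA Ribo-seq replicate 2 it called 26 (2 higher, 24 lower, median -0.63), beside 16.9% of all genes. Leaving out any other library, edgeR called none, with 14 to 19 of the 44 at an unadjusted p under 0.05, beside 12.2% to 20.5% of all genes.

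The lowest efficiency value belonged to KIF11. Its deposited efficiency, the authors' ratio of footprint to RNA TPM, was 0.0604 and 0.0979 after ADAR1 siRNA, against 0.160 and 0.179 after control siRNA (-0.99 ± 0.18, edgeR adjusted p = 0.0534). The groups did not overlap. CCNB1 had ratios of 0.228 and 0.352 after ADAR1 siRNA, against 0.552 and 0.650 after control siRNA (-0.89 ± 0.23, edgeR adjusted p = 0.0668), and NUSAP1 of 0.127 and 0.212 after ADAR1 siRNA, against 0.295 and 0.328 after control siRNA (-0.79 ± 0.18, edgeR adjusted p = 0.0567). MKI67 was again highest in change, with 0.0377 and 0.0651 after ADAR1 siRNA against 0.0253 and 0.0314 after control siRNA (0.95 ± 0.24, edgeR adjusted p = 0.0613), followed by CDC25B (0.64 ± 0.15, edgeR adjusted p = 0.0590). On these ratios the groups did not overlap for 28 genes that were lower and 3 that were higher, against 28.3% and 24.6% of all genes.

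**Figure D5:**
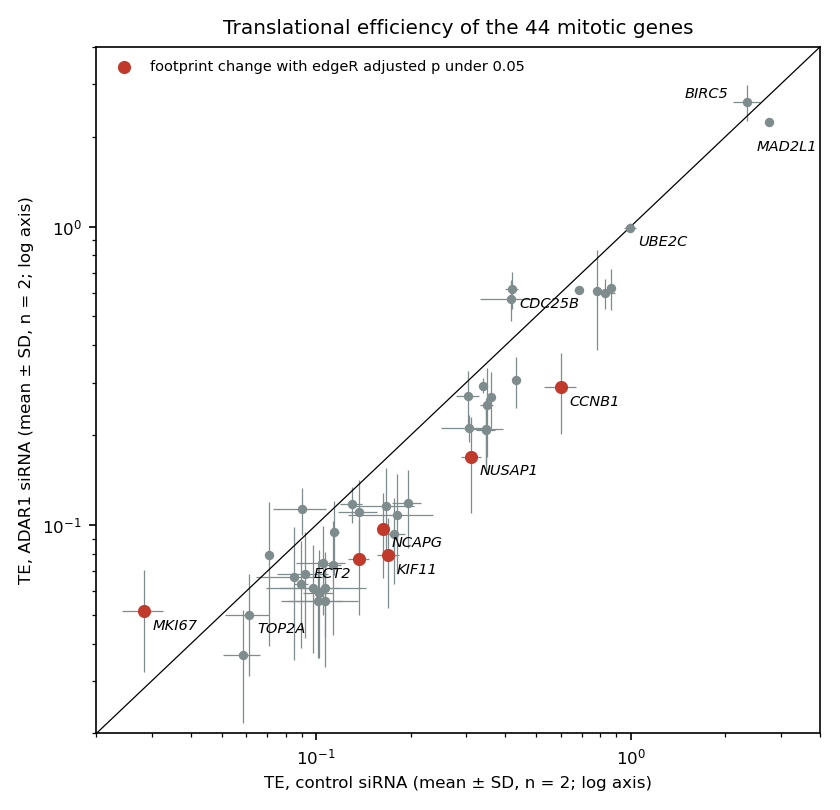
Translational efficiency (footprint TPM over RNA TPM) of each of the 44 genes after ADAR1 siRNA on the y axis and control siRNA on the x axis, both log axes, mean ± SD of 2 libraries; red marks the 6 genes with a footprint change at an edgeR adjusted p under 0.05 and the line marks equality. Most points lie below the line, and MKI67, at 0.0514 after ADAR1 siRNA and 0.0283 after control siRNA, lies above it.

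The genes spanned a wide range of efficiency. MAD2L1 averaged 2.24 ± 0.04 after ADAR1 siRNA and 2.76 ± 0.07 after control siRNA (SD, n = 2), the highest of the 44 in the controls, followed by BIRC5 at 2.62 ± 0.36 after ADAR1 siRNA and 2.35 ± 0.23 after control siRNA. UBE2C, the enzyme of the anaphase-promoting complex, averaged 0.992 ± 0.034 after ADAR1 siRNA and 0.996 ± 0.042 after control siRNA. At the low end stood MKI67, with 0.0514 ± 0.0194 after ADAR1 siRNA and 0.0283 ± 0.0043 after control siRNA, and SMC4, with 0.0367 ± 0.0150 after ADAR1 siRNA and 0.0584 ± 0.0078 after control siRNA. The median of the 44 was 0.0913 and 0.134 in the ADAR1 siRNA pairs and 0.160 and 0.191 in the control pairs. For all genes tested it was 0.322 and 0.392 after ADAR1 siRNA and 0.365 and 0.387 after control siRNA. Thus 35 and 35 of the 44 lay under the all-gene median after ADAR1 siRNA, and 33 and 34 after control siRNA. The length that counts and TPM imply for a gene differed between the assays, for MAD2L1 0.493 times the median gene in Ribo-seq and 1.64 times in Input, and for MKI67 6.41 and 3.71 times. The order of genes by efficiency carries that difference. The edgeR changes between siRNAs were fitted to counts, which are not divided by length. The part of the implied length in differences of the deposited ratio between siRNAs was not tested. Genes that were longer by the Ribo-seq measure had lower efficiency in the controls. The rank correlation was -0.72 over 11513 genes tested and -0.85 over the 44. That length divides the counts in the Ribo-seq TPM from which the efficiency is formed. The 2 measures are therefore not independent, and no conclusion is drawn from the correlation. The part of length in the low efficiency of the members was not tested.

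Other mitotic genes were taken from a list of 101, all tested. Of these, 1 footprint level fell at an edgeR adjusted p under 0.05 and none rose, where 1.67% and 1.88% of all genes did. At an unadjusted p under 0.05, 26 were lower and 12 higher, against 11.3% and 12.7% of all genes, and the median was -0.12. The 1 gene was NCAPD3, a subunit of condensin II, with 6.61 and 8.42 TPM after ADAR1 siRNA against 12.9 and 14.7 TPM after control siRNA (-0.79 ± 0.15, edgeR adjusted p = 0.0400). Its RNA was 95.4 and 89.3 TPM after ADAR1 siRNA, against 95.5 and 94.2 TPM after control siRNA. Among the 16 condensin and cohesin genes of that list, 13 footprint values were below 0 and 8 were lower at an unadjusted p under 0.05, with a median of -0.36. The medians were 0.04 for 13 genes of mitotic entry, -0.12 for 20 of the anaphase-promoting complex and separase, -0.06 for 22 of the kinetochore, -0.13 for 18 of the spindle and cytokinesis, and 0.01 for 12 transcription factors of mitotic genes. In RNA and in translational efficiency edgeR called none of the 101. At an unadjusted p under 0.05, 14 were lower and 15 higher in RNA, against 13.5% and 11.8% of all genes, and 23 were lower and 10 higher in efficiency, against 9.48% and 13.2%.

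Some members share genomic ground with other counted genes, and whether counting used strand is unknown. The spans of CCNA2 and EXOSC9, KIF20A and CDC23, CDC25C and FAM53C, and NCAPG and LCORL overlap, so their counts are less certain. ANLN, KIF15, BUB1B and PLK1 also overlap counted genes, with lower mean counts (MATCAP2 130, TMEM42 41.25, BUB1B-PAK6 18.5 and ERN2 0.25). KIF4B, a near copy of KIF4A, had a mean count of 10.4. Counts were not whole numbers in at least 1 library for 12 of the 44, namely CCNA2, CDC25C, BUB1B, AURKB, CDCA8, PLK1, AURKA, KIF4A, KIF15, ECT2, ANLN and NCAPG, and how reads were divided there is not given.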

How the data were processed

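Messenger RNA (Input) and ribosome footprints (Ribo-seq) were measured in MDA-MB-231 cells after ADAR1 or control siRNA, in 4 groups of 2 libraries taken from the sample titles. Per the submitters' processing notes, featureCounts, STAR, Bowtie2 and cutadapt were used with the build GRCh38; versions, settings, order and strand are not given in the sources. The authors deposited estimated counts per gene without normalization, of which 87.0% to 90.1% per library were whole. They also deposited TPM, and a ratio of Ribo-seq TPM to Input TPM as translational efficiency. That deposited ratio equalled Ribo-seq TPM over Input TPM at equal siRNA and replicate number for 100% of values, within 0.1%. Of 19892 gene numbers, 19669 matched a symbol in the RefSeq table.

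Counts were rounded and tested with edgeR 4.0.16 in R 4.3.3 (TMM scaling, filterByExpr, two-sided quasi-likelihood tests, Benjamini-Hochberg over all genes at 0.05). RNA used the Input libraries, footprints the Ribo-seq libraries, and translational efficiency all 8 as the interaction of assay and siRNA. SE is the log2 fold change divided by the root of the F statistic. Whether groups overlap was counted on log2 CPM (prior count 2) for RNA and footprints and on the deposited ratio for efficiency; values named for single genes are TPM. With 2 against 2 libraries, the smallest exact permutation p is 0.333. The scripts were tested on simulated data. Alternatives were upper-quartile and relative log expression scaling, no filter, a mean count of at least 50, DESeq2 1.42.0, a replicate block and leaving out each library. The members and lists were chosen with earlier results of these data known. By rule, every library's value is given for members with an adjusted p under 0.05 and for the 2 of each role group with the smallest footprint p, and other mitotic genes are named where they passed that threshold. UBE2C and KIF20B were added in RNA as the extremes, and MAD2L1, BIRC5, UBE2C and SMC4 in efficiency, after their values were seen. Promoter sequences are from RefSeq (GRCh38.p14). Counting error and the PCR copies of reads without molecular identifiers are not separated.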

Additional observations from a re-analysis of the deposited data

How the results depend on the processing

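Limits are set by 2 libraries per group. The direction of the members' median held in RNA, footprints and efficiency under every alternative run, but counts of calls moved. Members called were, in RNA, 0 as reported and 1 each with DESeq2 and the replicate block; in footprints 6, then 19 without a filter, 16 with DESeq2 and 22 with the block; in efficiency 0, then 11, 12 and 13. All genes called in RNA were 32 (0.253% of those tested), then 11 (0.087%) with upper-quartile scaling and 95 (0.584%) without a filter. They were 73 (0.658%) at a mean count of at least 50, 438 (2.69%) with DESeq2 and 1095 (8.66%) with the block. In footprints they were 425 (3.54%), then 1693 (10.9%) without a filter, 968 (6.23%) with DESeq2 (380 higher) and 2102 (17.5%) with the block. In efficiency they were 6 (0.0463%), then 854 (5.04%) without a filter and 2 (0.0183%) at a mean of 50. DESeq2 called 1004 (5.93%) and the block 1169 (9.02%) in efficiency. Within an assay, same-numbered ADAR1 siRNA and control libraries showed little shared deviation. Their differences of replicate 1 from replicate 2 correlated across genes at 0.00047 in RNA and 0.018 in footprints. Whether Input and Ribo-seq libraries of the same number came from the same culture was not tested. Leaving out 1 library gave 0 to 30 members and 0 to 5420 genes called in RNA, 0 to 30 and 77 to 3415 in footprints, and 0 to 26 and 0 to 2252 in efficiency, with a lone library assumed to vary like the others. Member medians then ran from 0.04 to 0.10 in RNA, -0.70 to -0.15 in footprints and -0.63 to -0.19 in efficiency. Changes of sign in single values were followed only for the 16 genes plotted by library. In RNA, NCAPG changed sign with the block (-0.0026). On leaving out a library, RNA values changed sign for NCAPG (-0.15 to 0.14), MKI67 (-0.050 to 0.023), ECT2 (-0.14 to 0.25), CCNB1 (-0.018 to 0.15), NUSAP1 (-0.15 to 0.026) and NDC80 (-0.024 to 0.17). So did footprints of CENPF (-0.21 to 0.70) and efficiency of CDCA8 (-0.63 to 0.044) and CENPF (-0.23 to 0.61). Other members changed sign too: of the 44, footprint values below 0 numbered 35 as reported and 31 to 38 on leaving out a library. The cause was not tested.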

Other observations

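MKI67 and CENPF, with footprint log2 fold changes of 0.91 and 0.33, were the longest of the 44 by the length that footprint counts and TPM imply. They stood at 6.41 and 7.09 times the median gene tested (3.71 and 3.15 times by Input counts and TPM). Across the 44, footprint change and that length had a rank correlation of 0.03. After these values were seen, the 91 tested genes at least as long as MKI67 were counted, with MKI67 and CENPF themselves among the 91. Their median footprint log2 fold change was 0.25, beside 0.05 for all genes tested. Of the 91, 66 were above 0, beside 6527 of all 12000. At an adjusted p under 0.05 edgeR called 6 higher, MKI67 among them, and 0 lower, beside 1.88% and 1.67% of all genes. With all genes split by that length into 10 bins of 1162 or 1163 genes, the median was 0.02 in the bin of the longest and 0.14 in the bin of the shortest, the highest of the 10. CENPE, at 5.95 times the median gene, had a value of -0.17. The part of the implied length in the change of MKI67 was not tested.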
